A study of Mus musculus with 6 samples.

Results

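Trp53, the mouse gene for the transcription factor p53, and 9 genes that p53 is known to switch on were followed across 6 pooled melanoma libraries. The 10 genes were taken by symbol from the 43629 genes of the count table, and all 10 had a row of their own there. The targets were Mdm2, Ccng1, Zmat3, Cdkn1a, Gdf15, Rrm2b, Bax, Phlda3 and Trp53inp1. All 9 had counts in the control pool, as had Trp53.

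The tumours were B16F10, an established mouse melanoma line, grown under the skin of female C57BL/6J mice aged 8 weeks. Mice received DMSO with control IgG (the control), DMSO with anti-PD-1, AZD5363 with MK1775 and control IgG, AZD5363 with MK1775 and anti-PD-1, KS100 with control IgG, or KS100 with anti-PD-1. Treatment ran daily until the control tumours reached 2000 mm3. AZD5363 inhibits the kinase AKT, MK1775 the kinase WEE1 and KS100 aldehyde dehydrogenases, and anti-PD-1 blocks an inhibitory receptor of T cells. Every group carried the same tumour line in an immunocompetent host, and the labels mark each library as a pool of tumours. Each treatment was 1 library, so no comparison of a pair of pools had a replicate check. The library from AZD5363+MK1775+anti-PD-1 is called the combination pool below.

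p53 is held at a low level in unstressed cells by MDM2, a ubiquitin ligase that marks it for destruction and is itself a p53 target, which closes a feedback loop. DNA damage and other stresses block this control, and stabilised p53 then raises genes for cell cycle arrest, repair and cell death. Most of this control acts on the protein, so the Trp53 transcript is not a readout of p53 activity. In melanocytes and melanoma the pathway is also linked to responses to ultraviolet light. WEE1 holds cells with damaged DNA back from mitosis, and AKT can strengthen MDM2, so both kinases touch the pathway.

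On build GRCm38, with the GENCODE M21 annotation, Trp53 (ENSMUSG00000059552) lies at chr11:69580359-69591873 on the forward strand. The genes nearest to it in the pathway are Mdm2 (ENSMUSG00000020184) at chr10:117688875-117710758 and Cdkn1a (ENSMUSG00000023067) at chr17:29090976-29100727. The others are Ccng1 at chr11:40748552-40755311, Zmat3 at chr3:32334792-32366014, Gdf15 at chr8:70629393-70632456, Rrm2b at chr15:37923952-37961318, Bax at chr7:45461697-45466898, Phlda3 at chr1:135766119-135769136 and Trp53inp1 at chr4:11156431-11174379. Trp53, Cdkn1a, Phlda3 and Trp53inp1 are read from the forward strand and the rest from the reverse. The libraries read 3′ ends, so a count says nothing of the isoform or of the coding sequence.

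The library totals ran from 25521 to 1591673 counts, a 62.4-fold range. Levels are given as counts and as CPM, counts scaled to a common depth with TMM, a normalisation that sets the bulk of genes equal between pools. With 3 counts as its limit, a count of 0 allows up to 1.96 CPM under control treatment, 3.03 CPM with anti-PD-1, 14.9 CPM in the combination pool, 90.6 CPM with KS100, 109 CPM with AZD5363+MK1775 and 174 CPM with KS100+anti-PD-1. The AZD5363+MK1775, KS100 and KS100+anti-PD-1 pools are called shallow below. Ribosomal RNA genes took 27.4% of counts in the combination pool and at most 5.01% in any other pool. Mitochondrial genes took 13.2% to 19.8% in the 4 pools with an inhibitor against 1.29% and 1.89% without. These shares overlap, since both include the mitochondrial ribosomal RNA genes. Without those, mitochondrial genes took 5.23% in the combination pool. They took 10.9% with AZD5363+MK1775, 12.6% with KS100, 11.5% with KS100+anti-PD-1, 1.77% in control and 1.24% with anti-PD-1. The melanocyte genes Pmel, Mlana, Tyr, Tyrp1, Dct, Mitf and Sox10 were all detected in the 3 deeper pools and 6 of 7 in each shallow pool. T cell markers held 1 count in the control pool and at most 6 in any pool, and keratinocyte markers at most 2. In bulk RNA, fewer cells of a type and less RNA per cell cannot be told apart.

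The promoters are shown first because p53 acts through a known DNA element, a decamer half-site that is usually present as a pair. RefSeq promoter windows of 300 bases (250 before to 50 after a start site, build GRCm38.p6) were held for 7 of the 10 genes, 9 windows in all. None was held for Zmat3, Rrm2b and Trp53inp1. An exact half-site decamer, a palindromic consensus that reads the same on both strands, was present in 5 of the 9 windows, against 8.36% of all 32851 windows in the table. The window of Trp53 itself (chr11:69580109-69580408, forward strand) had 1 half-site, at -75 from the start site. The first Cdkn1a window (chr17:29090729-29091028, forward strand) had a pair, at -73 and -51 from the upstream start site. The 2 sequences below run 5′ to 3′ with the half-sites in capitals.
Trp53: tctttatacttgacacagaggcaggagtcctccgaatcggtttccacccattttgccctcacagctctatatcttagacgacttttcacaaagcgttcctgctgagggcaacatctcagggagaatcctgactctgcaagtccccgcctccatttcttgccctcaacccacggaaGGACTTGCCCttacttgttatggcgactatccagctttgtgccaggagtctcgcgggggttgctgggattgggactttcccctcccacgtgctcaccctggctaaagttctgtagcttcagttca
Cdkn1a: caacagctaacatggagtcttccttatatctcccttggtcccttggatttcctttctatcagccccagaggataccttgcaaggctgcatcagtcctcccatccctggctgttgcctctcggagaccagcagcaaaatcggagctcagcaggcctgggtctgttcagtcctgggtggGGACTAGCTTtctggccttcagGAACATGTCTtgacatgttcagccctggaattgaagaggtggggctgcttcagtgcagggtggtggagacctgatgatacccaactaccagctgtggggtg
A full site, meaning a pair of exact half-sites at most 13 bases apart, was found in 24 of the 32851 windows, and Cdkn1a was the member that had one. Decamers with a mismatch were not sought, so a near match directly after the second Cdkn1a half-site is not marked. The other matching decamers were these, each a half-site shown in full.
Mdm2: GAACTTGCCT
Ccng1: GGGCAAGCCT
Bax: AGGCAAGCTT
They lie at chr10:117710935-117710944, chr11:40755462-40755471 and chr7:45467090-45467099, which is at -186, -185 and -201 from the respective start sites. The Phlda3 window, both Gdf15 windows and the second Cdkn1a window held no exact decamer. Searches of both strands for TTCNNNGAA, the interferon-gamma activated site, and for TGATGNAAN, a C/EBP-ATF element that ATF4 can bind, found no match in the 9 windows, where 8.3% and 3.95% of all windows had one. The members were chosen as p53 targets, so a half-site in them is a description, and a match does not show binding.

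**Figure D1:**
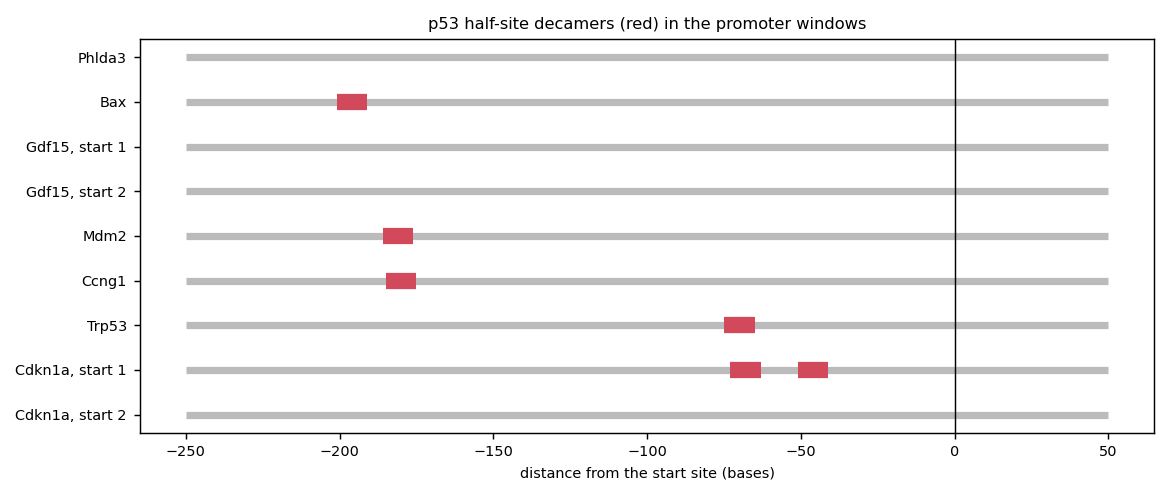
Position of p53 half-site decamers (red) in the 9 promoter windows (grey) of 7 genes, as distance from the start site in bases. The 5 windows with a match are those of Bax, Mdm2, Ccng1, Trp53 and the upstream start of Cdkn1a, which has a pair.

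Anti-PD-1 was set against the control for the response to the antibody by itself. Trp53 stood at the same level in both pools within counting error, while 4 of its 9 targets were higher with the antibody and none was lower. By the size rule, which asks for at least 20 counts in 1 of the pools, a ratio of at least 2 and a 95% counting interval wholly beyond 1.5-fold, 4 of the 10 genes were higher: Cdkn1a, Gdf15, Rrm2b and Trp53inp1. Over all genes tested 2.69% were higher and 2.14% lower. Gdf15 and Rrm2b had 15 counts each in control and reached the minimum of 20 only with anti-PD-1. They could therefore be called only as higher. The members were also chosen with earlier results of these data known.

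Trp53 had 24 counts (15.7 CPM) in control and 15 (15.2 CPM) with anti-PD-1, a ratio of 0.965 (0.471 to 1.92). Mdm2, the ubiquitin ligase, stood at 210 CPM on 320 counts and at 239 CPM on 236 counts, a ratio of 1.14 (0.959 to 1.35). The 2 core genes of the feedback loop were thus level in these pools within counting error. For Trp53 the interval reaches past 2-fold lower and almost 2-fold higher.

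The arrest and growth genes were next. Cdkn1a encodes p21, which inhibits cyclin-dependent kinases, and it had 105 counts (68.7 CPM) without the antibody and 144 (146 CPM) with it, a ratio of 2.12 (1.64 to 2.75). Ccng1, the gene for cyclin G1, had 253 and 272 counts and a ratio of 1.66 (1.39 to 1.98), under the fold the rule asks for. Gdf15, a secreted stress cytokine of the TGF-beta family, had 15 counts (9.82 CPM) and 42 (42.5 CPM), which made it the member with the highest ratio in this pair, 4.32 (2.35 to 8.39).

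Among the repair and death genes, Rrm2b, which supplies deoxynucleotides for DNA repair, had 15 and 29 counts and a ratio of 2.99 (1.55 to 5.99). Trp53inp1, a nuclear cofactor that promotes p53-dependent death and autophagy, had 25 and 47 counts and a ratio of 2.90 (1.75 to 4.92). Both intervals lay above 1.5. Bax, which permeabilises the mitochondrial outer membrane in apoptosis, had 46 and 64 counts and a ratio of 2.15 (1.45 to 3.21), so that its lower bound kept it just outside the rule. Zmat3, an RNA-binding regulator of splicing, had 211 and 260 counts and was just under the fold at 1.90 (1.58 to 2.29). Phlda3, a repressor of AKT, was level at 1.07 (0.802 to 1.41) on 126 and 87 counts.

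The 9 targets summed to 731 CPM in control and 1194 CPM with the antibody, a ratio of 1.63 (1.505 to 1.78). Their median log2 ratio was 1.06, beside -0.0036 over all genes tested. A wider set is given beside them. A list of 49 other p53 targets, written for this work, had 28 genes with enough counts, of which 2 were higher and none lower, with a median of 0.13 and a summed ratio of 0.969 (0.918 to 1.02). Among them was Zfp365, a genome stability gene, at 3.97 (2.36 to 6.92). Of 23 p53 regulators, 18 were tested and only Daxx, a chromatin and death adaptor, was called, lower at 0.351 (0.205 to 0.575). Of 18 cell cycle genes that p53 is known to repress, none of the 16 tested was called, while the list summed to 0.811 (0.782 to 0.841) of control.

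Several other groups moved with these targets in the anti-PD-1 pool, and their part in the result was not tested. Of 15 genes of the ATF4 stress response, which also raises Gdf15 in many cells, 12 were tested and 7 were higher, and the list's sum was at 1.76 (1.68 to 1.84) of control. Those furthest up were Slc7a11, the cystine transporter, at 9.37 (6.34 to 14.3), Trib3 at 4.84 (3.59 to 6.61) and Cebpb at 4.14 (2.87 to 6.09). Fibroblast markers, all 6 detected in both pools, summed to 120.5 CPM in control and 1632 CPM with anti-PD-1. Skeletal muscle markers went from 47.8 to 670.4 CPM (5 and 6 of 6 detected), erythroid markers from 596 to 3696 CPM (5 of 5 in both), macrophage markers from 87.7 to 244 CPM (6 of 6 in both) and endothelial markers from 164 to 354 CPM (5 of 5 in both). Melanocyte markers were at 21175 and 17571 CPM, with 7 of 7 detected in both.

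**Figure D2:**
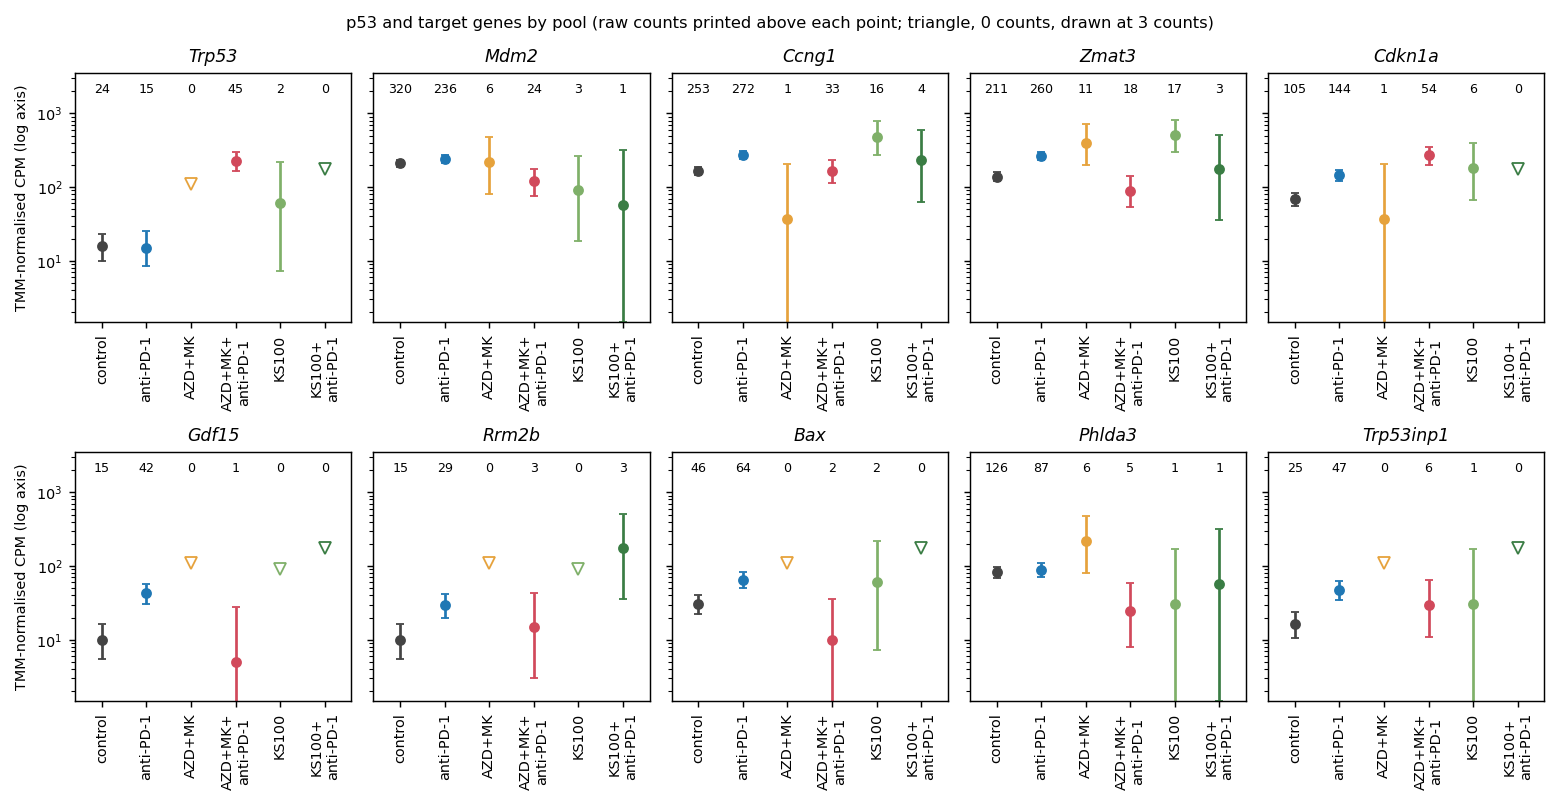
TMM-normalised CPM (log axis) of each gene in the 6 pools, with the raw count printed above each point and bars for 95% exact Poisson intervals, some of which run off the lower edge; open triangles mark 0 counts, drawn at 3 counts. Trp53 is at 15.7 and 15.2 CPM without an inhibitor and at 224 CPM in the combination pool, and the shallow pools have the widest bars.

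The combination pool was set against the control and against each of its parts, for what the kinase inhibitors and the antibody did together. Trp53 and Cdkn1a were higher than in control, and none of the other targets was called in that pair. Against anti-PD-1 alone Trp53 was higher and Zmat3 and Bax lower, and against AZD5363+MK1775 Trp53 was higher. Of the 10 genes, 8 had enough counts, and 2 were higher and none lower than in control. This is a pool in which 14.9% of all genes tested were higher and 8.02% lower, and 2 of 8 is not far above that share. With plain library totals in place of TMM, all ratios to control in this pool fall by 0.69 on the log2 scale, the split over all genes is 7.51% higher and 21.3% lower, and 5 members are called, with Mdm2, Zmat3 and Phlda3 lower.

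Trp53 had 24 counts under control treatment, 15 with anti-PD-1, 45 in the combination pool, 2 with KS100 and none with AZD5363+MK1775 or KS100+anti-PD-1. The combination pool thus held the most Trp53 counts, at 338474 total counts against 1591673 in control, and its level was 224 CPM (163 to 299). Its ratio was 14.2 (8.50 to 24.4) to control and 14.8 (8.07 to 28.5) to anti-PD-1 alone, and with library totals the ratio to control was 8.82. Against AZD5363+MK1775 without the antibody, where it had 0 counts, Trp53 was at least 2.05-fold higher when those 0 counts are set to the 3-count limit, and past the rule. The counting interval, which also covers the error of the 45 counts, begins at 1.60, and the call was lost with DESeq2 size factors and with both kinds of library totals. Genes with no count in either pool that had no inhibitor gave a background rate of 45.2 counts per Mb of exon in this pool, at which the 4045 exon bases of Trp53 would collect 0.183 counts. Its pseudogene Trp53-ps had 0 counts in all 6 pools, and no annotated gene shared an exon base with any of the 10 members.

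Cdkn1a had 54 counts (269 CPM) in the combination pool, a ratio of 3.91 (2.76 to 5.47) to control, or 2.42 with library totals. Relative to anti-PD-1 alone it was at 1.84 (1.32 to 2.54), which is not past the rule. Cdkn1a made up 9.41% of the counts of the 9 targets in control, 12.2% with anti-PD-1 and 37.0% in the combination pool.

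None of the remaining targets was called against control. Mdm2 had 24 counts (119 CPM), with ratios of 0.570 (0.360 to 0.863) to control and 0.500 (0.314 to 0.763) to anti-PD-1 alone, neither past the rule. Ccng1, on 33 counts, was at 0.991 (0.667 to 1.43) of control and 0.597 (0.403 to 0.858) of anti-PD-1. Zmat3, on 18 counts, was at 0.648 (0.377 to 1.05) of control and was lower than with anti-PD-1 alone, at 0.341 (0.199 to 0.549). Bax was likewise lower than with anti-PD-1 alone on 2 counts against 64, at 0.154 (0.0182 to 0.578). These were the 2 of 10 tested genes called lower against anti-PD-1, where 14% of all genes were called higher and 8.11% lower. With library totals that split became 7.19% and 24.7%, and with totals that leave out mitochondrial and ribosomal RNA genes 11.9% and 11.2%.

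Gdf15, with 42 counts under anti-PD-1 alone, had 1 in the combination pool, a ratio to anti-PD-1 of 0.117 (0.0029 to 0.689) that the rule did not call. Phlda3 had 5 counts and was at 0.301 (0.0962 to 0.722) of control, also outside the rule. Rrm2b had 3 counts and Trp53inp1 6, with ratios to control of 1.52 (0.282 to 5.37) and 1.82 (0.612 to 4.55), so no difference in either was detectable at this depth. The 9 targets together were at 726 CPM, 0.994 (0.831 to 1.18) of control and 0.608 (0.508 to 0.723) of anti-PD-1 alone. Their median log2 ratio to control was -0.61 over the 7 tested, against -0.01 over all genes tested.

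The regulators of p53 were divided in the combination pool. Of 19 tested against control, 6 were higher and 3 lower, with a median log2 ratio of 0.32. Atm, the kinase that activates p53 after double-strand breaks, had 12 counts in control and 87 in the combination pool, a ratio of 55.1 (30.0 to 111). Atm was tested through the combination pool alone and could be called only as higher. Hipk2, a kinase that phosphorylates p53, was at 12.98 (7.66 to 22.5). Usp7, which deubiquitinates both MDM2 and p53, was at 3.45 (2.65 to 4.45), and Ep300, the acetyltransferase p300, at 3.11 (2.11 to 4.52). Those lower included Rpl11 at 0.211 (0.158 to 0.275) and Rpl5 at 0.302 (0.223 to 0.400). RPL5 and RPL11 are ribosomal proteins that can restrain MDM2, and their genes have processed pseudogenes that may take their reads, so both values are uncertain.

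Of the 49 other targets, 28 were tested and 3 were higher and 3 lower, with a summed ratio of 0.856 (0.769 to 0.951). Tap1, which transports peptides for antigen presentation and is also interferon-induced, was at 6.36 (4.58 to 8.80). Zfp365 at 4.34 (1.95 to 9.24) and the repair nuclease gene Ercc5 at 3.90 (2.15 to 6.84) were the other two. Lpin1 at 0.317, Siva1 at 0.376 and Rps27l at 0.476 were lower. Bbc3, the death gene for PUMA, had 0 counts against 43 with anti-PD-1 alone and was called lower in that pair. Of 16 p53-repressed cell cycle genes tested against control, 3 were lower and 1 higher. They were Cdk1 at 0.208 (0.140 to 0.299), Nek2 at 0.273 (0.0874 to 0.653) and Birc5, the gene for survivin, at 0.386 (0.311 to 0.475), with Cenpf higher at 2.82 (2.12 to 3.71).

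Interferon and muscle transcripts moved with Trp53 and Cdkn1a in the combination pool, and their part in the result was not tested. Of 16 interferon genes, 13 were tested and 13 were higher than control, and they summed to 482 CPM in control, 509.6 CPM with anti-PD-1 and 7859 CPM in the combination pool. Only 9 of the 13 had at least 20 counts in control. The rest were tested through the combination pool alone and could be called only as higher. All 6 skeletal muscle markers were detected, at 12151 CPM in sum against 47.8 CPM in control and 670.4 CPM with anti-PD-1. Macrophage markers were at 522 CPM (6 of 6 detected) against 87.7 CPM, and fibroblast markers at 751 CPM (5 of 6 detected) against 120.5 CPM. The T cell markers held 6 counts, with Cd4 and Trac at 0. The ATF4 stress genes, by contrast, had a summed ratio to control of 0.491 (0.427 to 0.563), with 3 of 12 lower.

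**Figure D3:**
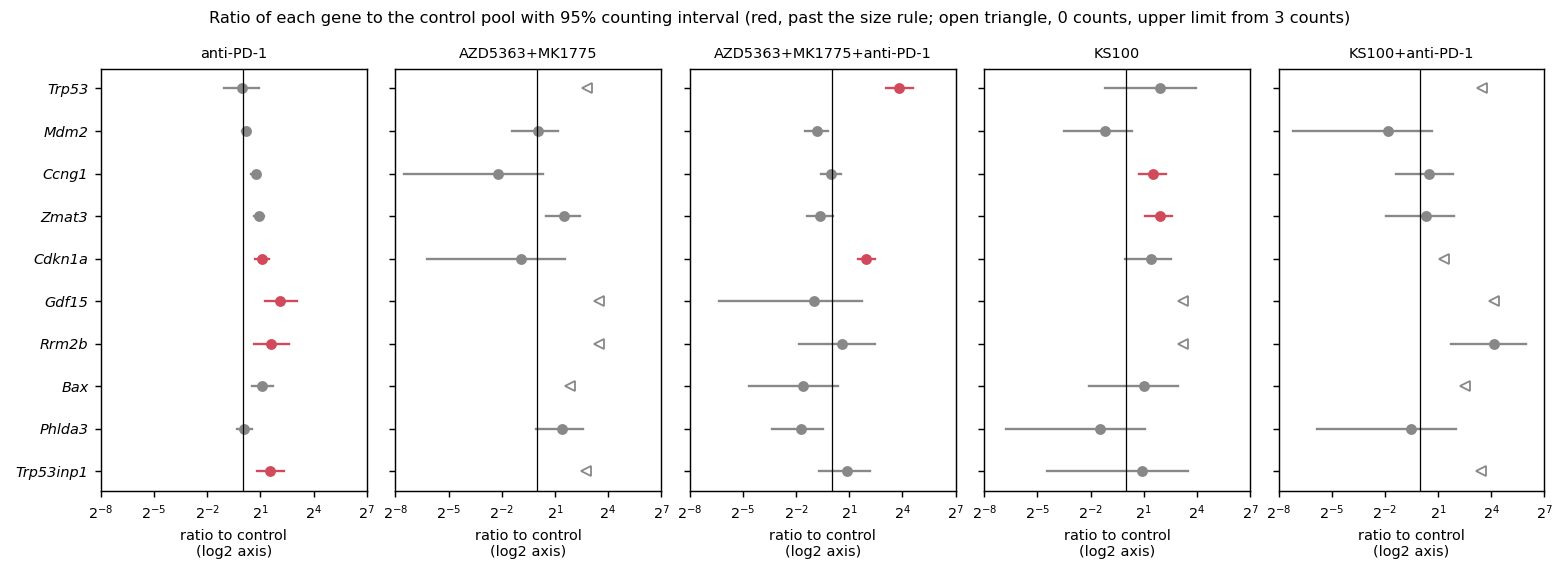
Ratio of each of the 10 genes to the control pool (log2 axis) in the 5 treated pools, with 95% counting intervals; red marks genes past the size rule and open triangles the upper limit for genes at 0 counts. With anti-PD-1 the called genes are Cdkn1a, Gdf15, Rrm2b and Trp53inp1, in the combination Trp53 and Cdkn1a, and with KS100 Ccng1 and Zmat3.

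KS100 alone was set against the control for the response to aldehyde dehydrogenase inhibition. Zmat3 and Ccng1 were higher, 2 of the 8 genes tested, where 4.5% of all genes tested were higher and 1.86% lower. With library totals that split became 3.25% and 4.04%, and Ccng1 was no longer called. Zmat3 had 17 counts (514 CPM) against 211 in control, a ratio of 3.72 (2.13 to 6.10). Ccng1 had 16 counts (483 CPM) against 253, a ratio of 2.92 (1.64 to 4.83).

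The background rate in the KS100 pool was 74.1 counts per Mb of exon, at which Zmat3, with 11435 exon bases the longest of the 10, would collect 0.847 counts and Ccng1 0.260. Cdkn1a, on 6 counts, was at 2.64 (0.946 to 5.93) and not past the rule. Trp53 had 2 counts, a ratio of 3.85 (0.44 to 15.5). Mdm2, on 3 counts, was at 0.433 (0.0887 to 1.28), and Bax, Phlda3 and Trp53inp1 had 2, 1 and 1. Gdf15 and Rrm2b had none, which allows up to 90.6 CPM. The 9 targets summed to 1390 CPM on 46 counts, 1.90-fold (1.38 to 2.55) of control, and Zmat3 and Ccng1 made up 37.0% and 34.8% of those counts. The targets' median log2 ratio was 0.95 over the 7 tested, beside -0.49 over all genes tested.

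The wider pathway was counted in the same pair. Of 28 other targets tested, 1 was higher, Zfp365, on 5 counts against 21, and none was lower, and the sum of the whole list was at 0.679 (0.504 to 0.894) of control. The median log2 ratio of the 28 was -2.75, below the -0.49 of all genes tested. Only 15 of the 49 genes on that list had a count in the KS100 pool. For regulators of p53, the kinase gene Atr was at 10.9 (5.88 to 18.9) and the ubiquitin ligase gene Cop1 at 4.38 (2.27 to 7.74). Of 16 p53-repressed genes tested, 4 were lower: Ccna2, Cdk1, Top2a and Plk1, at 0.107, 0.126, 0.254 and 0.319. Fibroblast markers were at 544 CPM (4 of 6 detected) and melanocyte markers at 6193 CPM (6 of 7), against 120.5 and 21175 CPM in control. Relative to control, skeletal muscle markers summed to 5.69 (2.50 to 11.4; 2 of 6 detected), endothelial markers to 2.03 (1.00 to 3.70; 2 of 5), macrophage markers to 1.03 (0.21 to 3.08; 3 of 6) and erythroid markers to 0.304 (0.111 to 0.664; 3 of 5). The part of these cell types in the Zmat3 and Ccng1 values was not tested.

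AZD5363 with MK1775, without the antibody, was likewise set against the control. None of the 8 genes tested was past the rule, where 1.65% of all genes were higher and 1.28% lower, 2.03% and 0.956% with library totals, and 2.67% and 0.554% with totals that leave out mitochondrial and ribosomal RNA genes. This pool had 25 counts over the 10 genes. Zmat3 had 11 of them, at 400.4 CPM and a ratio of 2.90 (1.43 to 5.29), just outside the rule, and it was called with library totals. Mdm2 and Phlda3 had 6 each, with ratios of 1.04 (0.380 to 2.29) and 2.65 (0.954 to 5.93). Ccng1 and Cdkn1a had 1 each. Trp53, Gdf15, Rrm2b, Bax and Trp53inp1 were at 0, which for Trp53 allows up to 6.95-fold of control. The 9 targets summed to 1.25-fold of control (0.802 to 1.85), and of 16 p53-repressed genes 2 were lower, Plk1 at 0.237 and Birc5 at 0.383. None of the macrophage, endothelial and skeletal muscle markers had a count in this pool, and melanocyte markers were at 9064 CPM. At the 3-count limit those zeros allow summed levels of up to 1.24-fold of control for macrophage, 0.667-fold for endothelial and 2.28-fold for skeletal muscle markers.

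KS100 with anti-PD-1 was the shallowest pool, with 12 counts over the 10 genes. None of 8 tested against control was past the rule, beside 4.59% of all genes higher and 2.86% lower, and 3.06% and 5.46% with library totals. Ccng1 had 4 counts and a ratio to control of 1.40 (0.378 to 3.63), and Zmat3 had 3 and a ratio of 1.26 (0.257 to 3.73). Rrm2b had 3 counts, a ratio of 17.7 (3.29 to 62.6), and was too low to be tested. At the pool's background rate of 86.6 counts per Mb of exon, the 9134 exon bases of Rrm2b would collect 0.791 counts, and Gm3362, a pseudogene that lies within Rrm2b on the same strand, had 2. Mdm2 and Phlda3 had 1 each, and Trp53, Cdkn1a, Gdf15, Bax and Trp53inp1 had none. Against anti-PD-1 alone, where 3.33% of genes were higher and 3.06% lower (2.34% and 6.31% with library totals), none of the 9 members tested was called. Against KS100 alone no member had enough counts to be tested (0 of 10). Of the 209 genes that could be tested in that pair, 4.31% were higher and 34% lower. Anti-PD-1 added to AZD5363 with MK1775 gave 1 called member, Trp53, of the 4 tested, where 11.1% of all genes were higher and 3.72% lower. The split was 2.72% and 8.31% with library totals, and 5.41% and 5.55% with totals that leave out mitochondrial and ribosomal RNA genes.

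**Figure D4:**
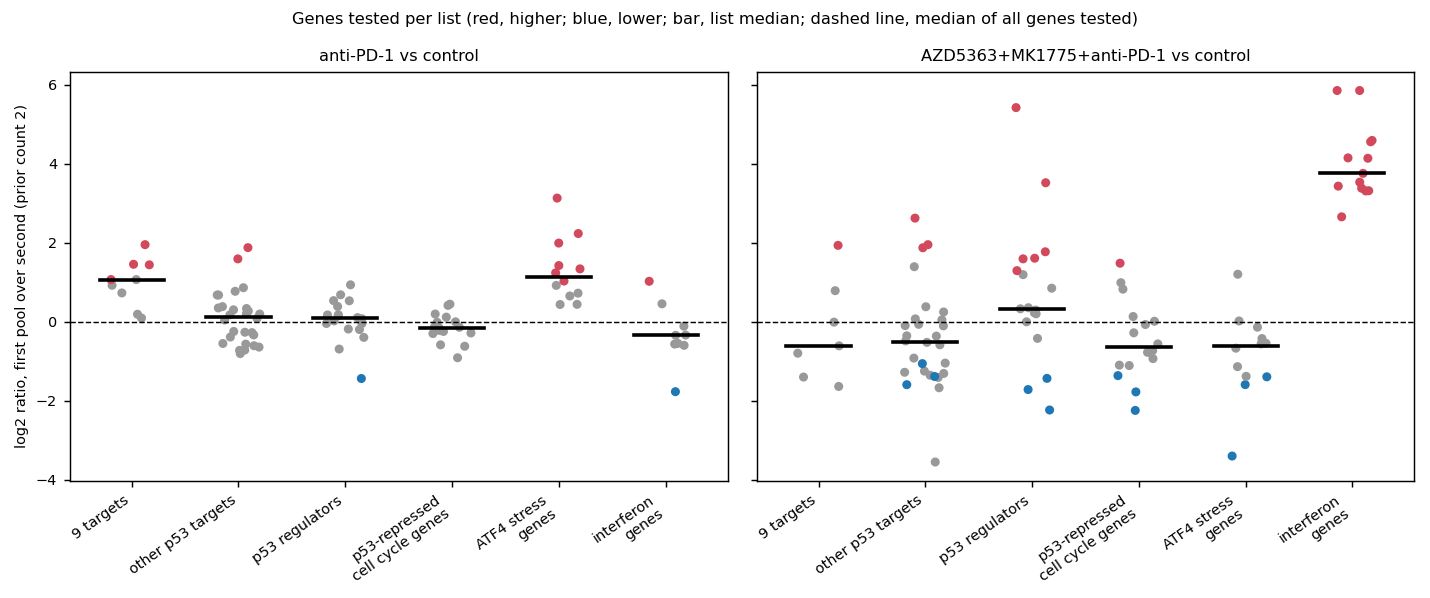
Log2 ratio to control (prior count 2) of every gene with enough counts in 6 lists, with anti-PD-1 alone and in the combination pool; bars are list medians, the dashed line is the median of all genes tested, red is higher and blue lower. The 9 targets have a median of 1.06 in the first panel and -0.61 in the second, while the interferon genes stand at -0.35 and 3.75.

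A fit over all 6 pools asked for the part of each treatment shared by the pools that had it. It is an additive model of inhibitor and antibody in edgeR, with quasi-likelihood tests and Benjamini-Hochberg adjustment, in which pools of other treatments serve as replicates. It kept 5 of the 10 genes, Mdm2, Ccng1, Zmat3, Cdkn1a and Phlda3, and none passed an adjusted p of 0.05 for any of the 3 effects, nor an unadjusted p of 0.05 (0 of 5 for each effect). DESeq2 called none of the members for any effect either, but it did not give each of them an adjusted p. For the AZD5363+MK1775 effect only Ccng1 (0.967) and Zmat3 (0.979) had a DESeq2 adjusted p. For the KS100 effect Gdf15 had none. Members without an adjusted p could not be called. Over all 4912 genes fitted, the antibody effect was called higher for 0.102% and lower for 0.0407%, the AZD5363+MK1775 effect for 1.28% and 0.0611%, and the KS100 effect for 7.21% and 0.489%. The largest log2 changes among the 5 were those of Phlda3 for the antibody (-0.83, SE 0.89, edgeR adjusted p = 0.999), Ccng1 for AZD5363+MK1775 (-0.95, SE 0.87, adjusted p = 0.856) and Mdm2 for KS100 (-1.58, SE 1.08, adjusted p = 0.434). Leaving out the combination pool moved the Ccng1 value to -2.23, and leaving out the KS100 pool moved the Mdm2 value to -2.77. With SEs near 0.9, differences of 2-fold were not detectable in this fit.

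Trp53 was too low in most pools to be kept there. With no filter its AZD5363+MK1775 effect was 2.85 on the log2 scale (SE 1.15, edgeR adjusted p = 0.61). Leaving out the AZD5363+MK1775 pool, where it had 0 counts, gave 3.83 (SE 0.94, edgeR adjusted p = 0.00416) where 194 of 8317 genes were called higher, and this rests on the combination pool as the only one with these inhibitors.

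The genes with the profile closest to Mdm2 over the 6 pools were Gnai3, Nup88 and Rad21, at Euclidean distances of 0.222, 0.347 and 0.335 in centred log2 CPM, among the 4912 genes fitted. For Cdkn1a they were Nop53, Nsf and Crk, at 0.815, 0.896 and 0.964. These distances rest on 6 points of very unequal depth and are a description. No such neighbours were sought for Trp53, which that filter left out.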

How the data were processed

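RNA from pooled B16F10 tumours (30 to 60 mg of tissue) was made into QuantSeq 3′ FWD libraries, which read the 3′ ends of polyadenylated RNA, and read on a MiSeq with 151 cycles. This is stated per the labels' protocols. The authors deposited 1 table of raw counts per Ensembl gene, which is the unit used here. The submitters' processing notes name GRCm38 as the build, and HISAT2 2.1.0, HTSeq and bcl2fastq among the tools. The strand setting of the counting is not given in the sources used here. Of 43721 rows, 92 were spike-ins, all at 0, and 42462 of the genes were named from GENCODE M21.

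Ratios between pools used effective library sizes from TMM (edgeR 4.0.16, R 4.3.3) and 95% exact conditional intervals. Intervals and limits cover counting error only, since each treatment had 1 library. The counts carry no molecular identifiers, so the intervals may be too narrow even for counting error. Members, lists and rules were chosen with earlier results of these data known. All 10 members were described, and from other lists at most 4 called genes per direction and comparison, and a few of these genes are not reported here. The additive edgeR fit used filterByExpr and left 2 residual degrees of freedom. Its SE is the log2 change over the square root of F. DESeq2 1.42.0, other scalings, other minimum counts and leaving out pools were alternatives. Ratio rule and fits were tested on simulated data. Log2 ratios of lists used a prior count of 2. The background rate came from 8744 protein-coding genes without a count in either pool that had no inhibitor.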

Additional observations from a re-analysis of the deposited data

Results flagged for a closer look

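Zmat3 had ratios on opposite sides of 1 under the same treatment in different settings, and the difference was not tested, since each setting has 1 pool on each side. Adding anti-PD-1 gave a Zmat3 ratio of 1.90 (1.58 to 2.29) without an inhibitor and 0.224 (0.100 to 0.524) on top of AZD5363 with MK1775. Equally, adding AZD5363 with MK1775 gave 2.90 (1.43 to 5.29) without the antibody and 0.341 (0.199 to 0.549) with it. The size rule called Zmat3 in the last of these comparisons and in none of the other 3. Both pairs of ratios come from the same 4 pools, with 211, 260, 11 and 18 counts, and the value of 11 counts is in a shallow pool. No other member had intervals on opposite sides of 1 in this way.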

How the results depend on the processing

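Of 42 recomputed ratios of called members under other scalings, 41 stayed within the interval of the main value and none changed direction. The exception was Cdkn1a with AZD5363+MK1775+anti-PD-1, at 2.42 of control with library totals, where Trp53 was at 8.82. The called Trp53 ratio of that pool to AZD5363+MK1775 was taken against 0 counts and is not among the 42. Its call was lost with DESeq2 size factors and with both kinds of library totals. A ratio within its interval can also lose its call, as Ccng1 with KS100 did at 2.25 with library totals. The 4 calls with anti-PD-1 alone held under every scaling and minimum count. The number of members called moved in these cases, and where not stated otherwise the cause was not tested. In AZD5363+MK1775 against control it was 1 (Zmat3) with library totals, and 1 with totals that leave out mitochondrial and ribosomal RNA genes. In KS100 against control it was 1 with library totals. In AZD5363+MK1775+anti-PD-1 against control it was 5 with library totals, as Mdm2, Zmat3 and Phlda3 were then lower. It was 3 (Phlda3 lower) with totals that leave out mitochondrial and ribosomal RNA genes, where 12.8% of all genes were higher and 10.1% lower. In the same pool against anti-PD-1, Trp53 was the 1 member higher in each alternative and the others called were lower. The number called was 5 with DESeq2 size factors, where 13% of all genes were higher and 9.61% lower. It was 7 with library totals (7.19% and 24.7%), and 5 with totals that leave out mitochondrial and ribosomal RNA genes (11.9% and 11.2%). With TMM from the 3 deepest pools, an alternative chosen after seeing the data, it was 5 (12.9% and 9.76%). Against AZD5363+MK1775 it was 0 with each of DESeq2 size factors, library totals and totals that leave out mitochondrial and ribosomal RNA genes. With DESeq2 size factors 9.34% of all genes were higher in that pair and 4.01% lower. The number was 2 with a minimum count of 10 (Trp53 higher, Zmat3 lower), where the split was 6.18% and 3.36%. With no minimum it was 3 (Phlda3 also lower), beside 2.33% and 2.28%. In KS100+anti-PD-1 against control it was 1 (Rrm2b, on 3 counts) with a minimum count of 10 and 1 with none, where 5.78% and 27.4% of all genes were higher. In the additive fit, leaving out 1 pool at a time gave 0 to 1 members called for the AZD5363+MK1775 effect and 0 for the other effects. The call was Trp53 without the AZD5363+MK1775 pool, where 194 of all 8317 genes fitted were higher, against 63 of 4912 with all pools. Over the same refits Ccng1 ran from -2.23 to -0.60 for AZD5363+MK1775, and Mdm2 from -2.77 to -0.92 for KS100. The Phlda3 antibody effect ran from -1.92 to 0.39 over these, and was 0.15 without the AZD5363+MK1775 pool and 0.39 without the pool that had these inhibitors and anti-PD-1. No paired analysis was possible because each treatment had 1 pool. Depth limits the 3 shallow pools most: falls of low members could not be seen there.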
